A study of Homo sapiens with 9 samples.

Results

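Transcripts of the collagens, the laminins and the numbered integrin subunits were examined in A375R cells, a human melanoma cell line resistant to a BRAF inhibitor of the vemurafenib type. The authors' methods list that inhibitor, PLX4032, in the culture medium of A375R cells, and the sample labels do not name it. The genes were the protein-coding entries whose symbols begin with COL, LAMA, LAMB, LAMC, ITGA or ITGB followed by a number, as those families are named. Of 79 such genes, 61 had a mean of at least 10 normalized reads over the 9 libraries and were analysed, out of 62710 genes in the table and 15230 that passed the same minimum. The 61 genes were 32 of 44 collagen chains, 11 of 12 laminin chains, 10 of 12 integrin alpha subunits and 5 of 8 integrin beta subunits. The other 3, ITGB1BP1, ITGB1BP2 and ITGB3BP, carry an integrin name but encode proteins that bind integrin tails or were named for such binding, not subunits.

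RNA was sequenced from 3 libraries of cells given DMSO, the solvent, 3 of cells given 10 µM VHL-r for 2 h and 3 of cells given 10 µM R4VPL3-1 for 2 h. VHL-r is the moiety that recruits the ubiquitin ligase VHL. R4VPL3-1 is the PROTAC-like molecule in which that moiety is joined through a linker to a binder of RNF4, another ubiquitin ligase. The titles of the DMSO libraries read WT and name no solvent, and the series' design text gives DMSO as the control. All libraries came from 1 cell line, so p-values describe the spread between repeats of that line. The libraries held 26435568 to 32085626 reads assigned to genes. RNA was measured 2 h after the compounds were added, and protein was not measured.

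Collagens are trimers of alpha chains that form fibrils (types I, II, III, V, XI and XXVII), sheet-like networks (type IV), beaded filaments (type VI) or coats on fibril surfaces. Laminins are trimers of 1 alpha, 1 beta and 1 gamma chain that polymerize in basement membranes. Integrins are pairs of 1 alpha and 1 beta subunit in the plasma membrane. They bind these matrix proteins outside the cell and link them through talin and kindlin to actin within it. In melanoma, integrins and laminins are known for their part in adhesion, migration and invasion.

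The stretches of DNA just before the start of transcription are shown for the genes that differed from DMSO, to let a reader see what the genes that moved do and do not have in common there. Of the 13 genes called in at least 1 comparison, 10 had an entry in the RefSeq promoter table (GRCh38.p14). For 6 of them the 250 bases before the start held no annotated exon, and these are printed 5′ to 3′. Capitals mark CCAAT boxes (CCAAT), GC boxes (GGGCGG) and AP-1 sites (TGACTCA or TGAGTCA), each searched on both strands, and TATA boxes (TATAAA), searched on the printed strand. Of the 6, ITGA5, ITGA6 and LAMB3 were lower after R4VPL3-1, and COL5A1, COL27A1 and LAMA5 were higher.
ITGA5, chr12:54419267-54419516, minus strand: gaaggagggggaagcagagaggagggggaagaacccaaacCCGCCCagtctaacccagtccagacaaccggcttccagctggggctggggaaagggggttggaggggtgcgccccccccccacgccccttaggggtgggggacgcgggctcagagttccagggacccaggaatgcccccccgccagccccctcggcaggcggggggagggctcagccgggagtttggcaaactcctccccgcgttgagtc
ITGA6, chr2:172427086-172427335, plus strand: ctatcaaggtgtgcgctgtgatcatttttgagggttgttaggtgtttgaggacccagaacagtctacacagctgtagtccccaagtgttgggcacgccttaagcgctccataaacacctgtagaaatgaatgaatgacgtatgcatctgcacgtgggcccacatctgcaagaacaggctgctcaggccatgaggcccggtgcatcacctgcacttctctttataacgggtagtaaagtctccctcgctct
LAMB3, chr1:209652426-209652675, minus strand: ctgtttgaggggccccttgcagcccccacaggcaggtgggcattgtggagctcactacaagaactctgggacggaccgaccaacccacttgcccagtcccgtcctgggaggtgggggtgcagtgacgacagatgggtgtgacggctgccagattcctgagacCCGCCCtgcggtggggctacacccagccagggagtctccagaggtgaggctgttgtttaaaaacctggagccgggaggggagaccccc
COL5A1, chr9:134641553-134641802, plus strand: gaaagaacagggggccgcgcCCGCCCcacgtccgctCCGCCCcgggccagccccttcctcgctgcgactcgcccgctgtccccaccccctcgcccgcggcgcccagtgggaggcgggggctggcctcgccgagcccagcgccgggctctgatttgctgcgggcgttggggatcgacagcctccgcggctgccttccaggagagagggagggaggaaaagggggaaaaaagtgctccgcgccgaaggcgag
COL27A1, chr9:114155287-114155536, plus strand: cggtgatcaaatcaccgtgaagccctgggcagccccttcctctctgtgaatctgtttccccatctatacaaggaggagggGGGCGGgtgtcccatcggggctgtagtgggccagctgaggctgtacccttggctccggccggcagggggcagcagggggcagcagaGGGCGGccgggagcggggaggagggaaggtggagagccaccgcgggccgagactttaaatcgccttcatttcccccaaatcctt
LAMA5, chr20:62367313-62367562, minus strand: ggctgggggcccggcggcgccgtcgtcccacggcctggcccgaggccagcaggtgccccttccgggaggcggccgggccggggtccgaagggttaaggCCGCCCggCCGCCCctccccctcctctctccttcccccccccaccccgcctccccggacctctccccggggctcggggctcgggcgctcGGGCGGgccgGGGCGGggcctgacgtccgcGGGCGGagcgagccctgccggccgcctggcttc

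A GC box stood in 5 of these 6 windows, and ITGA6 had none of the motifs. LAMA5 held 5 GC boxes, COL5A1 and COL27A1 held 2 each, and ITGA5 and LAMB3 held 1 each. None of the 6 windows held a CCAAT box, an AP-1 site or a TATA box as spelled above. Among 34943 promoter windows of the same length, 42.5% held a GC box, 32.0% a CCAAT box, 4.22% an AP-1 site and 6.82% a TATA box. Among the 42 of 61 genes with an entry, the shares were 61.9%, 26.2%, 2.38% and 4.76%. The GC content of the 6 windows ran from 50.8% in ITGA6 to 82.8% in LAMA5, against a median of 58.0% for all windows. COL20A1 and ITGA3 were among the genes with no entry.

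Levels were compared between genes as normalized reads per kb of the canonical transcript, averaged over all 9 libraries. They spanned 2406-fold, from COL9A3 at 3608.9 per kb to COL20A1 at 1.5. Above 1000 per kb lay 12 genes, between 100 and 1000 lay 22, and below 100 lay 27.

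**Figure D1:**
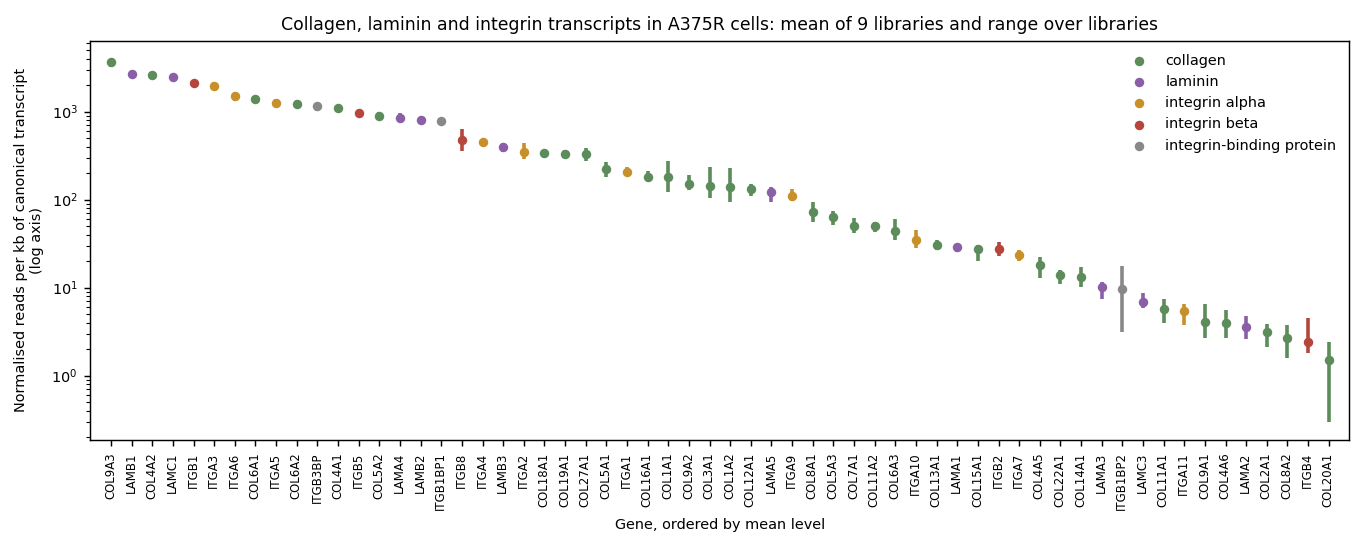
Mean level of 60 of the 61 genes over 9 libraries (points) and the range over libraries (bars), in normalized reads per kb of the canonical transcript on a log axis, with colours for the families. The order runs from COL9A3 at 3608.9 to COL20A1 at 1.5, and the bars are longest for the genes with few reads and for COL1A1, COL1A2 and COL3A1.

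Among collagens, COL9A3, a chain of the fibril-coating type IX, was the most abundant per kb. Its range over libraries was 3171.7 to 3965.6. COL4A2 (2575.9 per kb), a chain of the basement membrane network, and COL6A1 (1390.3 per kb), a chain of the beaded filaments, followed it. The other type IX chains were lower, with COL9A2 at 152.3 and COL9A1 at 4.1 per kb. The type I chains COL1A1 and COL1A2 stood at 180.1 and 139.1 per kb, and COL3A1 at 143.4. The level of COL9A3 was not called different in either comparison with DMSO (log2 fold change −0.08 ± 0.06 for VHL-r and −0.10 ± 0.06 for R4VPL3-1, SE, n = 3).

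Of the laminin chains, LAMB1 (2665.0 per kb) and LAMC1 (2453.2 per kb) were the highest. LAMA4, the alpha chain of laminin-411, followed at 847.7 per kb. LAMA4 made up 83.9% of the summed alpha-chain level and LAMA5 12%. LAMB1 made up 68.9% of the beta chains, LAMB2 20.9% and LAMB3 10.2%. LAMC1 made up 98.8% of the gamma chains. LAMB3, a beta chain of epidermal basement membranes, was at 396.1 per kb, and LAMA3, an alpha chain of the same membranes, at 10.1 per kb. None of these shares says which trimers were assembled.

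The integrin subunits were led by ITGB1 (2127.9 per kb), the partner of most matrix-binding alpha subunits. The next beta subunits were ITGB5 (970.3 per kb) and ITGB8 (472.9 per kb), which both pair with the alpha V subunit. The highest alpha subunits were ITGA3 (1960.1 per kb) and ITGA6 (1493.7 per kb), both laminin receptors, and ITGA5 (1243.3 per kb), the fibronectin receptor. The alpha V gene, ITGAV, has a letter in place of a number and is not among the 61 genes. Its mean was 5378.2 normalized reads, and its log2 fold changes were 0.01 for VHL-r and −0.04 for R4VPL3-1 against DMSO. ITGAE, the partner of beta 7, had a mean of 559.6, and ITGAX, a leukocyte subunit, of 17.9. The leukocyte subunits ITGAL, ITGAM and ITGAD were at 0.2, 2.3 and 1.9. Of the letter-named genes, the 3 that could be tested were not called in any comparison. Among these 3, 1 was higher after VHL-r at an unadjusted p under 0.05 in limma. ITGAX had log2 fold changes of 0.8 for VHL-r and 0.64 for R4VPL3-1 against DMSO (limma adjusted p 0.119 and 0.203). ITGB3, the other well-known partner of alpha V, had a mean of 0.54 and no reads in 6 of the 9 libraries. Exons of other genes on the same strand cover 33.18% of the exonic bases of ITGB3, so part of its reads may not have been assigned to it.

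Against DMSO, VHL-r was followed by 4 higher and 5 lower genes of the 61. These are 6.56% and 8.2% of the genes, beside 10.3% and 9.51% of all 15230 genes tested (limma, Benjamini-Hochberg adjusted p of at most 0.05). R4VPL3-1 was followed by 5 higher and 7 lower genes, 8.2% and 11.5%, beside 13.1% and 11.8% of all genes. The shares of the 61 genes were below those of all genes or close to them. The higher genes after each compound include COL20A1 and ITGB1BP2, which averaged under 10 normalized reads in DMSO and reached the minimum mean only through the treated libraries, so these 2 calls are not independent of the filter. With a minimum mean of 50, which leaves both out, 2 genes were higher after VHL-r and 3 after R4VPL3-1. The median log2 fold change was −0.009 for VHL-r and 0.024 for R4VPL3-1, against −0.0045 and −0.0063 over all genes. Both comparisons use the same DMSO libraries, so they are not independent of each other.

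The calls were then counted by family. Of the 15 integrin subunits, 0 were higher after either compound, 4 were lower after VHL-r and 5 after R4VPL3-1. The lower shares are 26.7% and 33.3%, beside 9.51% and 11.8% of all genes. In each comparison 11 of 15 estimates lay below 0, beside 7806 and 7842 of all 15230. Of the 32 collagens, 2 were higher after VHL-r and 3 after R4VPL3-1, COL20A1 among them in both, and 0 were lower. The higher shares are 6.25% and 9.38%, beside 10.3% and 13.1% of all genes. Of the 11 laminin chains, 1 was higher after each compound (9.09%). Of the same chains, 1 was lower after VHL-r (9.09%) and 2 after R4VPL3-1 (18.2%). The medians were −0.094 and −0.106 for the integrin subunits and 0.048 and 0.054 for the collagens. Differences between the families were not tested. At an unadjusted p under 0.05 in limma, 0 of these 15 integrin subunits were higher after either compound. For the collagens, 0 were lower after VHL-r and 1 (COL9A2) after R4VPL3-1. By edgeR and by DESeq2 these counts were 0. In bulk RNA, fewer cells of a kind and less RNA per cell cannot be told apart.

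**Figure D2:**
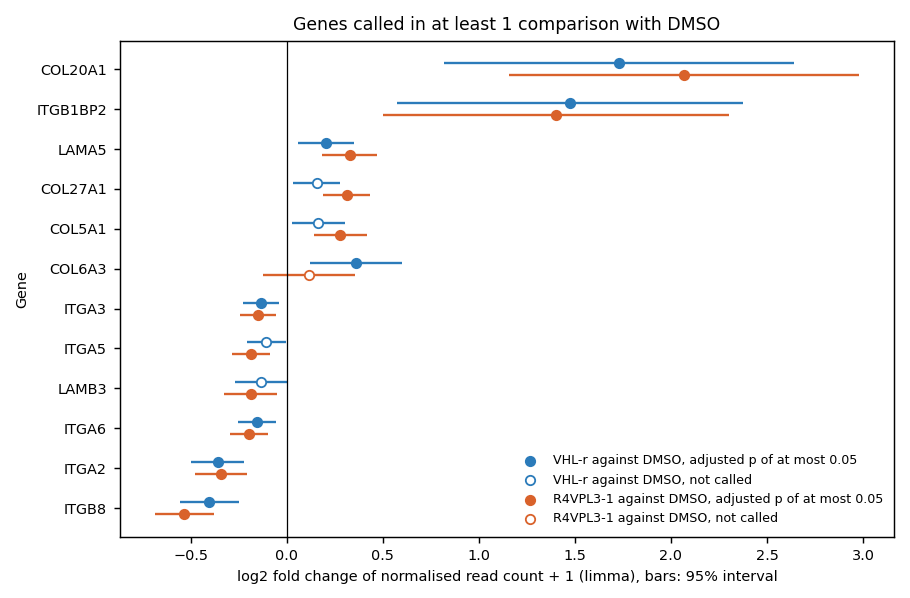
Log2 fold changes against DMSO (limma, normalized reads + 1) of 12 of the 13 genes called in at least 1 comparison, for VHL-r in blue and R4VPL3-1 in orange, with 95% intervals as bars, filled points for adjusted p of at most 0.05 and open points for the others. Integrin subunits and LAMB3 lie left of 0, and COL20A1, ITGB1BP2, LAMA5, COL27A1, COL5A1 and COL6A3 lie right of it, and ITGB8 is at −0.53 after R4VPL3-1. COL20A1 and ITGB1BP2 passed the minimum mean only through the treated libraries, so their filled points and intervals are no test of a change.

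ITGB8 (ENSG00000105855, chr7:20330702-20415754, plus strand) encodes the beta 8 subunit, which with alpha V binds latent TGF-beta. It had 5627, 4843 and 5128 normalized reads in the DMSO libraries, 3842, 3790 and 4146 after VHL-r, and 3237, 3396 and 4185 after R4VPL3-1. All 6 treated libraries lay below the lowest DMSO library. The log2 fold change was −0.40 ± 0.07 (SE, n = 3) for VHL-r and −0.53 ± 0.07 for R4VPL3-1, with limma adjusted p of 3.59e-04 and 1.10e-05. ITGB8 fell to 0.76 and 0.69 of its DMSO level.

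ITGA2 (ENSG00000164171, chr5:52989340-53094779, plus strand) encodes the alpha 2 subunit of a collagen and laminin receptor. Its normalized reads were 3476, 3119 and 2843 in DMSO, 2571, 2499 and 2267 after VHL-r, and 2363, 2435 and 2624 after R4VPL3-1. Again no treated library reached the lowest DMSO library, and the treated groups overlapped each other. The decrease was 0.78-fold after VHL-r and 0.79-fold after R4VPL3-1 (log2 fold change −0.36 ± 0.07 and −0.34 ± 0.07, limma adjusted p 3.66e-04 and 4.64e-04). The neighbouring ITGA1 gene, 30.1 kb away on the same strand and also a collagen receptor subunit, was not called in any comparison.

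ITGA6 (ENSG00000091409, chr2:172427354-172506459, plus strand) and ITGA3 (ENSG00000005884, chr17:50055968-50090481, plus strand) encode the alpha subunits of laminin receptors. ITGA6 had 9286, 9652 and 9280 normalized reads in DMSO, 8888, 8214 and 8240 after VHL-r, and 7710, 8447 and 8469 after R4VPL3-1. ITGA3 had 10679, 9875 and 10130 in DMSO, 9067, 9203 and 9630 after VHL-r, and 8763, 9577 and 9320 after R4VPL3-1. Both genes were below every DMSO library in all 6 treated libraries, but by little. For ITGA6 the log2 fold changes were −0.16 ± 0.05 and −0.20 ± 0.05 (limma adjusted p 0.0206 and 0.00309), and for ITGA3 −0.14 ± 0.04 and −0.15 ± 0.04 (0.0365 and 0.018). The call of ITGA3 was lost without DMSO replicate 1 in both comparisons, for VHL-r also with no filter and without DMSO replicate 3 or VHL-r replicate 1 or 2, and for R4VPL3-1 also without R4VPL3-1 replicate 1. That of ITGA6 after VHL-r was lost without DMSO replicate 2 or VHL-r replicate 2 or 3.

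ITGA5 (ENSG00000161638, chr12:54395261-54419266, minus strand) had 5865, 5456 and 5618 normalized reads in DMSO, 4926, 5313 and 5492 after VHL-r, and 4800, 5149 and 4938 after R4VPL3-1. The R4VPL3-1 libraries lay below all DMSO libraries, and 1 VHL-r library lay within the DMSO range. Its log2 fold change was −0.19 ± 0.05 for R4VPL3-1 (limma adjusted p 0.00652) and −0.11 ± 0.05 for VHL-r, which was not called (0.133). The shared partner ITGB1 was not called (log2 fold change −0.05 ± 0.04 and −0.09 ± 0.04, limma adjusted p 0.5 and 0.148). Of the 100-base windows of its transcript, 14.03% occur in transcripts of other genes, so part of its reads may not have been assigned to it. The same share was 3.76% for ITGA1 and 0 for the other 59 genes.

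LAMB3 (ENSG00000196878, chr1:209614870-209652425, minus strand), a laminin beta chain of epidermal basement membranes, had 1785, 1658 and 1682 normalized reads in DMSO, 1402, 1594 and 1686 after VHL-r, and 1393, 1511 and 1597 after R4VPL3-1. Only the R4VPL3-1 libraries lay wholly below DMSO. The log2 fold change was −0.19 ± 0.07 for R4VPL3-1 (limma adjusted p 0.043) and −0.13 ± 0.07 for VHL-r (0.182). The first of these calls was lost in 10 of 20 other ways of running the test, namely with no filter, both rescalings of the libraries, edgeR, and without any 1 DMSO library, VHL-r replicate 2 or R4VPL3-1 replicate 1 or 2. LAMA3 was not called. LAMC1, the gamma chain with the highest level, was at 19467 ± 437 (SD, n = 3) in DMSO, 19061 ± 381 after VHL-r and 19827 ± 1089 after R4VPL3-1 and was not called. Of 5 keratinocyte and epithelial markers, 2 (KRT5 and KRT14) had a mean of at least 10. Their summed level with EPCAM, CDH1 and TP63 was 352.2 to 396.8 in DMSO, 304.2 to 322.6 after VHL-r and 251.2 to 300.5 after R4VPL3-1. The part of this fall in that of LAMB3 was not tested.

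LAMA5 (ENSG00000130702, chr20:62307955-62367312, minus strand), the alpha chain of laminin-511, moved the other way. It had 1337, 1085 and 1236 normalized reads in DMSO, 1439, 1310 and 1453 after VHL-r, and 1452, 1574 and 1545 after R4VPL3-1. The R4VPL3-1 libraries lay above all DMSO libraries, while 1 VHL-r library lay within the DMSO range. The log2 fold change was 0.33 ± 0.07 for R4VPL3-1 (limma adjusted p 0.00123) and 0.20 ± 0.07 for VHL-r (0.0415). The second call was lost in 6 of 20 other ways of running the test, without DMSO replicate 2 or 3, VHL-r replicate 1 or 3 or R4VPL3-1 replicate 2, and with no filter on low values. LAMB1 lay below every DMSO library in all 6 treated libraries, at 0.92-fold and 0.94-fold, and was not called (limma adjusted p 0.0635 and 0.152).

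**Figure D3:**
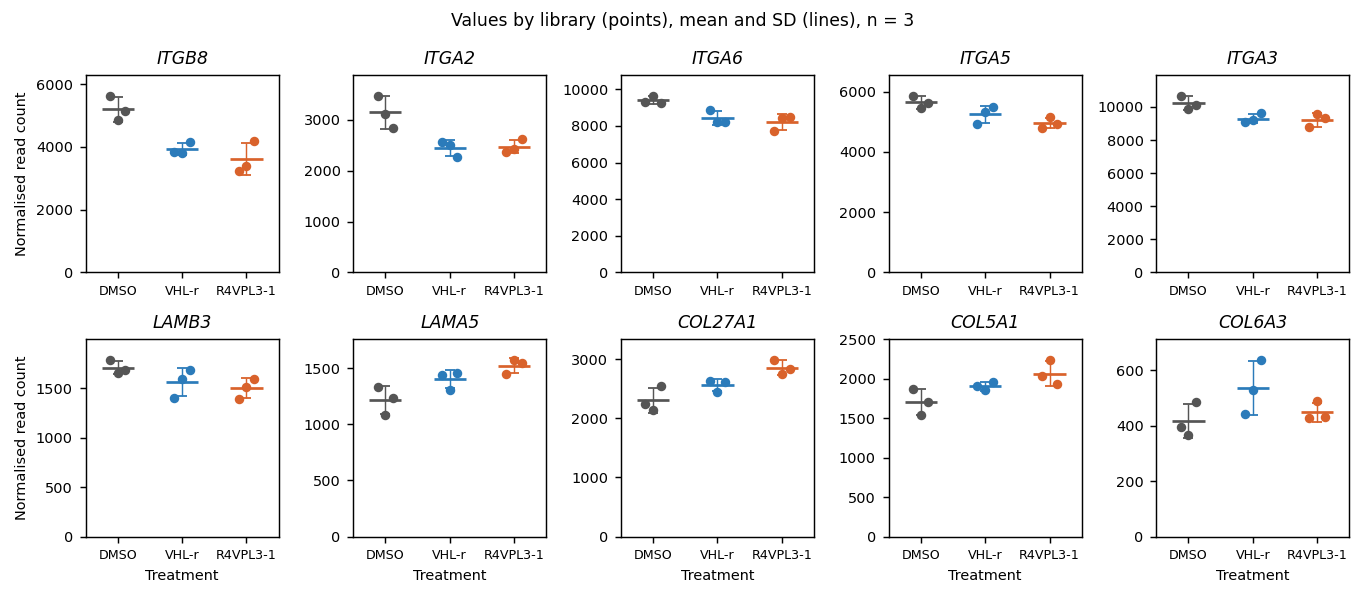
Normalized read counts by library (points) with the mean and SD of 3 libraries (lines), on axes that start at 0, for 10 genes called in at least 1 comparison with DMSO. The upper panels and LAMB3 are lower after the compounds, LAMA5, COL27A1 and COL5A1 are higher, and COL6A3 is highest after VHL-r, and most of the shifts are small beside the level of the gene.

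COL27A1 (ENSG00000196739, chr9:114155537-114312511, plus strand) and COL5A1 (ENSG00000130635, chr9:134641803-134844843, plus strand) encode fibrillar chains. COL27A1 had 2237, 2137 and 2541 normalized reads in DMSO, 2624, 2448 and 2612 after VHL-r, and 2988, 2747 and 2835 after R4VPL3-1. COL5A1 had 1874, 1535 and 1708 in DMSO, 1904, 1851 and 1959 after VHL-r, and 2029, 2239 and 1929 after R4VPL3-1. For both genes the R4VPL3-1 libraries lay above all DMSO libraries, and the VHL-r libraries overlapped them. After R4VPL3-1 the log2 fold changes were 0.31 ± 0.06 and 0.28 ± 0.07 (limma adjusted p 4.15e-04 and 0.00362). After VHL-r they were 0.16 ± 0.06 and 0.16 ± 0.07 and were not called (0.0713 and 0.0942). COL5A2, the chain that joins COL5A1 in type V collagen, was at 6349 ± 360 in DMSO, 6052 ± 499 after VHL-r and 6020 ± 632 after R4VPL3-1 (SD, n = 3) and was not called.

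COL20A1 (ENSG00000101203, chr20:63293186-63334851, plus strand), a fibril-associated collagen, had very few reads. It had 2.72, 5.90 and 2.03 normalized reads in DMSO, 19.0, 6.30 and 18.4 after VHL-r, and 15.9, 18.9 and 16.1 after R4VPL3-1. The DMSO libraries were the lowest 3 of the 9, with 1 VHL-r library just above them. The log2(value + 1) differences from DMSO were 1.73 ± 0.44 for VHL-r and 2.07 ± 0.44 for R4VPL3-1. ITGB1BP2 (ENSG00000147166, chrX:71301750-71305371, plus strand), which encodes the muscle protein melusin, had 4.54, 3.94 and 6.08 in DMSO, 7.00, 21.0 and 22.5 after VHL-r, and 15.9, 8.95 and 20.3 after R4VPL3-1. Its log2 differences were 1.47 ± 0.43 and 1.40 ± 0.43. With DMSO means of 3.55 and 4.85, both genes passed the minimum of 10 only because they were higher in the treated libraries. These values are therefore a description. The calls of both genes, which enter the counts of higher genes above, are no test of a change. COL20A1 (mean over all libraries 11.69) and ITGB1BP2 (12.25) are also the genes closest to the minimum mean from above, ahead of COL8A2 (12.38). Just below it stood COL24A1 (9.87), COL4A4 (9.79) and ITGB7 (9.13).

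COL6A3 (ENSG00000163359, chr2:237324003-237414328, minus strand), a chain of the beaded filaments, had 397, 367 and 487 normalized reads in DMSO, 443, 530 and 638 after VHL-r, and 429, 489 and 430 after R4VPL3-1. The VHL-r libraries overlapped the DMSO libraries, although the gene was called higher there (log2 fold change 0.36 ± 0.12, limma adjusted p 0.0317). It was no longer called under the robust option of limma, nor without DMSO replicate 1 or 2 or VHL-r replicate 2 or 3. After R4VPL3-1 the log2 fold change was 0.12 ± 0.12 and was not called. The genes of the other chains of the main type VI trimer, COL6A1 and COL6A2, were not called.

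R4VPL3-1 and VHL-r were given at the same dose for the same time and were compared directly as 1 pair, with p-values adjusted over all 15230 genes. Of the 61 genes, 0 were higher and 0 lower, beside 1.14% and 0.729% of all genes. The smallest adjusted p was 0.289 (limma), 3 genes had an unadjusted p under 0.05, and edgeR and DESeq2 on the reads recovered from the deposited values called 0. The estimates ran from −0.38 to 0.34 on the log2 scale. For 41 of the 46 genes averaging at least 100 normalized reads, the 95% interval of the difference lay between −0.5 and 0.5. The exceptions included COL1A1, COL1A2, COL3A1 and COL4A5. Over these 46 genes the lowest bound was −0.73 and the highest was 0.51.

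COL27A1 and COL6A3 were among the 3 genes with an unadjusted p under 0.05. For COL27A1 each R4VPL3-1 library exceeded every VHL-r library, with a difference of 0.16 (0.03 to 0.28, adjusted p 0.289). For COL6A3 the groups overlapped, with a difference of −0.24 (−0.49 to −0.00, adjusted p 0.489). For ITGA2, which both compounds left at a like level, the difference was 0.02 (−0.12 to 0.15). ITGB8 differed by −0.13 (−0.28 to 0.02, limma adjusted p 0.619), and was called lower after R4VPL3-1 only when R4VPL3-1 replicate 3 was left out.

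**Figure D4:**
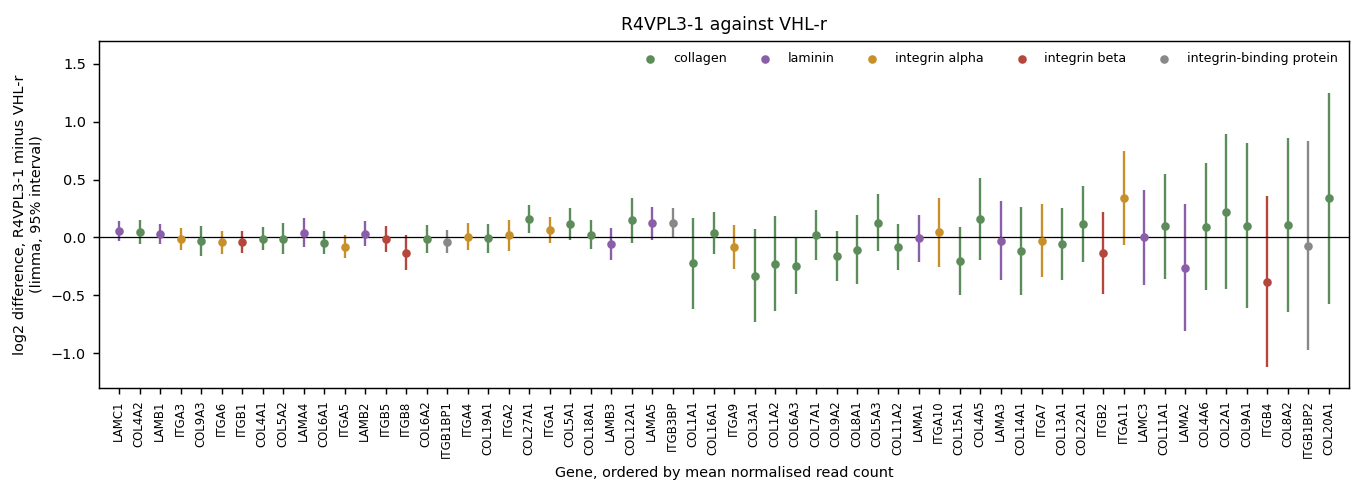
Log2 difference between R4VPL3-1 and VHL-r (limma estimate and 95% interval) for 60 of the 61 genes, ordered by mean normalized read count from left to right, with colours for the families. The estimates lie between −0.38 and 0.34, no gene was called, and the intervals widen to the right as reads become few.

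COL1A1 (ENSG00000108821, chr17:50184101-50201632, minus strand), COL1A2 (ENSG00000164692, chr7:94394895-94431227, plus strand) and COL3A1 (ENSG00000168542, chr2:188974373-189012746, plus strand), the chains of type I and type III collagen, were described together after their values were seen. COL1A1 had 840, 874 and 1180 normalized reads in DMSO, 729, 1320 and 1635 after VHL-r, and 899, 1187 and 923 after R4VPL3-1. COL1A2 had 574, 555 and 758, then 472, 839 and 1158, then 630, 773 and 589. COL3A1 had 616, 582 and 862, then 565, 1017 and 1274, then 674, 856 and 640.

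All 3 groups overlapped for these genes, and in VHL-r the highest library was 2.24, 2.45 and 2.25 times the lowest. The genes lie on different chromosomes, yet DMSO replicate 3, VHL-r replicate 3 and R4VPL3-1 replicate 2 were the highest of their group for each of them, and for COL6A3 too. The pattern was not particular to these genes, as the same replicates were highest for COL2A1, COL8A2, LAMB1 and LAMB2. COL1A2 divided by COL1A1 stayed between 0.64 and 0.71 over the 9 libraries, and COL3A1 divided by COL1A1 between 0.67 and 0.78. Their SDs between replicates on the log2 scale were 0.402, 0.421 and 0.412 for COL1A1, COL1A2 and COL3A1. Among 9161 genes averaging 300 normalized reads or more, 4, 0 and 3 had a larger SD, the median SD was 0.071 and the 99th percentile was 0.211. COL4A1, COL4A2 and COL5A2, at higher levels, varied far less. Over the 9 libraries, the deviations of COL6A2 and COL9A3 from their group means went with those of COL1A1 (r of 0.89 and 0.88). Those of COL12A1 went the other way (r of −0.84).

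**Figure D5:**
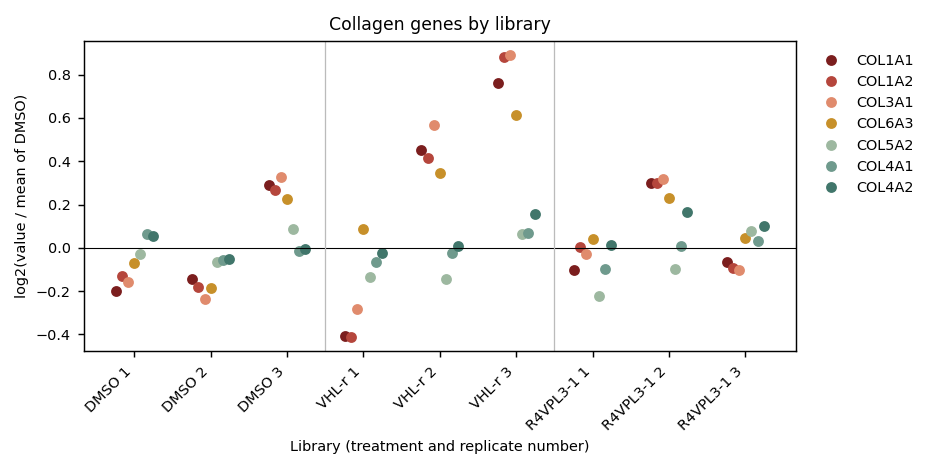
Log2 ratio of each library's normalized read count to the mean of the DMSO libraries, for 7 collagen genes in the 9 libraries. COL1A1, COL1A2, COL3A1 and, less so, COL6A3 move together between replicates, and are lowest in VHL-r replicate 1 and highest in VHL-r replicate 3 among the VHL-r libraries, while COL4A1, COL4A2 and COL5A2 stay closer to 0.

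With all libraries, none of the 3 was called, at log2 fold changes of 0.29 ± 0.19, 0.31 ± 0.20 and 0.41 ± 0.19 for VHL-r against DMSO (limma adjusted p 0.337, 0.323 and 0.153). Without VHL-r replicate 1 they became 0.62, 0.66 and 0.75 and were all called (limma adjusted p 0.00202, 0.00202 and 8.36e-04). R4VPL3-1 against VHL-r then gave −0.56, −0.58 and −0.67 (limma adjusted p 0.026, 0.0327 and 0.014), against −0.22, −0.23 and −0.33 with all libraries. COL3A1 was also called against DMSO without DMSO replicate 3 (0.59, limma adjusted p 0.0485), while COL1A1 and COL1A2 were called against DMSO in no other alternative run. The summed level of 6 fibroblast markers (DCN, LUM, PDGFRA, PDGFRB, THY1 and FAP) was 494.9 to 587.2 in DMSO, 426.3 to 644.2 in VHL-r and 490.2 to 599.5 in R4VPL3-1, with the VHL-r extremes in the same libraries, replicates 1 and 3. All 6 markers had a mean of at least 10 and none was at 0. The sum covers markers that went apart. LUM was called lower after VHL-r and THY1 higher after R4VPL3-1 (limma adjusted p 0.0117 and 0.0419), and DESeq2 did not call THY1 (adjusted p 0.0945). The correlation of deviations with COL1A1 ran from 0.29 for LUM to 0.75 for DCN and THY1. The part of these markers in the spread of the collagens was not tested.

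Several collagen genes lie side by side on opposite strands. COL4A1 and COL4A2 (chr13:110148963-110307157, minus strand, and chr13:110305812-110513209, plus strand) encode the 2 chains of the commonest type IV trimer and point away from a shared promoter. The RefSeq starts are separated by 126 bases, of which the first 100 hold no annotated exon and carry 1 CCAAT box and 1 GC box, marked as above.
Between COL4A1 and COL4A2, chr13:110307158-110307257, plus strand: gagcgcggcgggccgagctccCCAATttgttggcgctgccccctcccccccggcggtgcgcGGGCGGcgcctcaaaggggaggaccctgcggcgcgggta

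COL4A1 had 7168 ± 304 (SD, n = 3) normalized reads in DMSO, 7136 ± 340 after VHL-r and 7079 ± 327 after R4VPL3-1. COL4A2 had 16058 ± 587, 16609 ± 1110 and 17147 ± 901. Neither was called, and the 95% intervals of the R4VPL3-1 fold change were −0.12 to 0.08 and −0.01 to 0.20 on the log2 scale. Per kb, COL4A2 stood at 2575.9 and COL4A1 at 1089.9, so the levels of the paired genes were not equal.

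The other pairs were more unequal. COL4A5 and COL4A6 on chromosome X, 340 bases apart, were at 18.3 and 4.0 per kb. COL4A6 had 19.1, 22.6 and 18.3 normalized reads in DMSO, 26.02, 29.4 and 29.7 after VHL-r, and 20.54, 36.8 and 36.4 after R4VPL3-1. Its VHL-r libraries lay above the DMSO libraries, and it was not called (limma adjusted p 0.223 and 0.119). COL4A3 and COL4A4, 170 bases apart on chromosome 2, were both below the minimum, at means of 0.8 and 9.79. COL19A1 and COL9A1, 3.6 kb apart on chromosome 6, were at 332.5 and 4.1 per kb. COL5A2 and COL3A1, 19.2 kb apart on chromosome 2, were at 899.2 and 143.4 per kb, and only COL3A1 showed the wide spread between replicates.

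The 18 genes below the minimum were 12 collagens, 1 laminin, 2 integrin alpha and 3 integrin beta subunits. They included ITGB6 (mean 0.31), which is known from epithelia, and COL6A5, which was listed at 0 in all 9 libraries. Exons of other genes on the same strand cover 16.7% of the exonic bases of ITGB6. None of the 18 genes was tested.

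Many of the 61 genes are long. Their median span on the genome was 85.3 kb, against 32.5 kb for all tested genes, and 28 of them (45.9%) spanned at least 100 kb, against 21.2%. Of these 28, 2 were called higher and 1 lower after R4VPL3-1, beside 10.3% and 10.7% of the 3228 tested genes of that span. After VHL-r, 0 were higher and 1 lower, beside 7.56% and 8.61%. At an unadjusted p under 0.05, 2 were higher, and edgeR and DESeq2 called 0 higher. Antisense exons of other genes cover 33.17% of the exonic bases of ITGB1BP1, 26.4% of ITGA4 and 18.47% of COL18A1. The counting used strand, and none of the 3 was called.

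The enzymes that modify, export and crosslink collagen were taken as a further list. Of 28 tested genes, 2 were higher and 2 lower after VHL-r (7.14% and 7.14%), and 4 higher and 3 lower after R4VPL3-1 (14.3% and 10.7%), near the shares of all genes given above. MIA3, which exports procollagen from the endoplasmic reticulum, rose by 0.25 and 0.26 on the log2 scale (limma adjusted p 6.61e-04 and 2.94e-04). P4HA1, a prolyl 4-hydroxylase subunit, was higher after R4VPL3-1 by 0.26 (5.18e-04). LOXL4 and LOXL3, lysyl oxidases that crosslink collagen, were lower after both compounds, LOXL4 by −0.36 and −0.39 and LOXL3 by −0.22 and −0.20. By DESeq2, LOXL4 was not called in either comparison (adjusted p 0.153 and 0.0923). P3H1, a prolyl 3-hydroxylase, was higher after both compounds by 0.16 and 0.17.

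Adaptors that couple integrins to actin formed the next list. Of 32 tested, 2 were higher and 5 lower after VHL-r (6.25% and 15.6%, beside 10.3% and 9.51% of all genes), and 4 higher and 8 lower after R4VPL3-1 (12.5% and 25%, beside 13.1% and 11.8%). The list was not tested against other genes. NEDD9, a scaffold of focal adhesions, had 1367, 1140 and 1227 normalized reads in DMSO, 842, 849 and 874 after VHL-r, and 702, 768 and 759 after R4VPL3-1. The groups did not overlap, and the log2 fold changes were −0.54 and −0.74 (limma adjusted p 6.30e-06 and 5.07e-08). BCAR1, its paralog, was lower by −0.30 and −0.40, and TGFB1I1, a paxillin relative, by −0.49 and −0.40. FERMT3, the kindlin of blood cells and 1 of the higher genes in both counts, had 5.90 to 9.99 normalized reads in DMSO, 17.9 to 20.48 after VHL-r and 20.3 to 54.2 after R4VPL3-1. It too passed the minimum of 10 only through the treated libraries, so its values are a description. In R4VPL3-1 against VHL-r, 0 of the 32 were called by limma, edgeR or DESeq2, and 2 in each direction had an unadjusted p under 0.05 in limma.

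Of 20 other matrix proteins tested, 2 were higher and 1 lower after VHL-r (10.0% and 5.0%, beside 10.3% and 9.51% of all genes), and 5 higher and 0 lower after R4VPL3-1 (25% higher, beside 13.1%). At an unadjusted p under 0.05 in limma, 2 were lower after R4VPL3-1, and by edgeR and DESeq2 0 were. HSPG2 encodes perlecan, a proteoglycan of basement membranes. It had 4134, 3378 and 3763 normalized reads in DMSO, 5433, 3941 and 4458 after VHL-r, and 5662, 6066 and 5543 after R4VPL3-1. The R4VPL3-1 libraries were the highest, and the log2 fold change was 0.62 against DMSO and 0.33 against VHL-r (limma adjusted p 9.15e-06 and 0.042). Against DMSO, VHL-r gave 0.29 (limma adjusted p 0.0178). By DESeq2, HSPG2 was called for R4VPL3-1 against DMSO and not for R4VPL3-1 against VHL-r or VHL-r against DMSO (adjusted p 0.336 and 0.114). FBN1, which encodes fibrillin-1, was higher after both compounds by 0.24 and 0.37. FREM2 and FN1, the fibronectin gene, were higher after R4VPL3-1 by 0.24 and 0.22, and FRAS1 was lower after VHL-r by −0.37.

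Of 13 other matrix receptors, 0 were higher after either compound, 2 were lower after VHL-r (15.4%, beside 9.51% of all genes) and 3 after R4VPL3-1 (23.1%, beside 11.8%). DDR1, a collagen-binding receptor kinase, was lower by −0.27 and −0.34 (limma adjusted p 0.00176 and 1.14e-04) and CD44, a hyaluronan receptor, by −0.16 and −0.19. At an unadjusted p under 0.05, by edgeR and by DESeq2, the count of higher receptors was also 0. DAG1, dystroglycan, was lower after R4VPL3-1 by −0.17. SDC4, a syndecan, was lower after R4VPL3-1 than after VHL-r by −0.25 (limma adjusted p 0.0403). Of 16 metalloproteinases and their inhibitors, 0 were higher after either compound, beside 10.3% and 13.1% of all genes. Of the same 16, 4 were lower after VHL-r and 3 after R4VPL3-1 (25% and 18.8%, beside 9.51% and 11.8% of all genes). By edgeR and DESeq2 0 were higher, and at an unadjusted p under 0.05 in limma 1 was higher after VHL-r and 0 after R4VPL3-1. The lower genes were MMP2 (−0.23 and −0.28), MMP8 (−0.35 and −0.44) and TIMP3 (−0.24 and −0.30), with MMP17 (−0.19) after VHL-r.

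Markers of melanoma and the neural crest were present in part. Of 10 genes, 8 had a mean of at least 10, with SOX10 and AXL the highest, while MLANA was at 0 in every library and TYR at a mean of 0.4. Their summed level was 32284 to 34184 in DMSO, 23113 to 25368 after VHL-r and 20923 to 22719 after R4VPL3-1. SOX10 made up much of this sum, at means of 17547 in DMSO, 10200 after VHL-r and 8405 after R4VPL3-1. Of the 8 tested markers, 0 were higher, 3 were lower after VHL-r (37.5%, beside 9.51% of all genes) and 4 after R4VPL3-1 (50%, beside 11.8%). PMEL, DCT and S100B were not called in any comparison. Of 4 leukocyte markers, 0 had a mean of at least 10, and of 4 endothelial markers 2 did, with no sum above 71.8. SOX10 was lower by −0.79 and −1.06 against DMSO and by −0.28 after R4VPL3-1 against VHL-r (limma adjusted p 0.00951 for the last). The part of these levels in the changes of the matrix genes was not tested.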

How the data were processed

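The authors aligned single reads to GRCh38 with STAR, counted them per gene with htseq-count by strand, and normalized them with DESeq2 (version 1.36.0 per the labels). The deposited values are this normalized signal, the reads of a gene divided by the size factor of its library. All 9 value columns were used. From this deposited signal, whole reads were recovered (every value within 0.0075 of a whole number), with size factors of 0.9341 to 1.1012.

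Differences were tested by limma with a mean-variance trend (version 3.58.1, R 4.3.3), fitted to log2(value + 1) of the 15230 genes averaging at least 10 normalized reads, with treatment as the single factor and all 9 libraries together. Benjamini-Hochberg adjusted p-values were called at 0.05, and errors in fold changes are SEs. In simulated data the fit recovered 87 of 100 genes changed by 1 on the log2 scale and 66 of 99 changed by 0.5. Of its 166 calls, 13 were false. Genes were changed in the simulated VHL-r libraries only. Smaller changes, a replicate effect and changes in as many genes as were called in the real data were not simulated. The alternatives were edgeR (version 4.0.16) and DESeq2 (version 1.42.0), both run on recovered reads, other pseudocounts, filters and scalings, limma's robust option, a replicate block, the 6 libraries compared alone, and each library left out in turn. Counting error is small at this depth except for genes with few reads.

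The genes and lists were chosen with earlier results of these data known. Genes named are those called in any comparison, the 3 highest per kb in each family, opposite-strand collagen neighbours, letter-named integrin subunits, the called genes with the 4 largest changes in each list and those beside the minimum mean. Others, among them COL1A1, COL1A2, COL9A2 and ITGA1, were named after their values were seen. Some results of these lists are counted but not reported by name here. Lengths, spans and overlaps came from GENCODE 44, whose coordinates were identical for 62470 of 62639 matched genes. Promoter sequences are from RefSeq. Over all tested genes, same-numbered libraries deviated together little (r of deviations from group means −0.01 to 0.12). The numbers were therefore not taken as pairs. Some collagen, laminin and integrin genes, among them COL5A2, COL9A3, COL16A1, LAMA4 and ITGA9, were highest in replicate 3 of every group. Others, among them COL1A1, COL27A1 and ITGA2, were not. No r was computed for these families alone, and the calls with a replicate block are given below.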

Additional observations from a re-analysis of the deposited data

How the results depend on the processing

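No call reversed under any alternative run. The calls of ITGB8 and ITGA2 against DMSO for both compounds, and of COL27A1, COL5A1, LAMA5, ITGA5 and ITGA6 for R4VPL3-1, were kept in every alternative run. COL20A1 and ITGB1BP2, which reach the minimum mean only through the treated libraries, are not tested at a mean of at least 50. Higher genes after VHL-r numbered 4 as reported, 2 with no filter, 2 at a mean of at least 50, and 1 to 6 when single libraries were left out (1 without DMSO replicate 2, where COL20A1 alone was called, or without VHL-r replicate 3). Lower genes after VHL-r numbered 3 to 5 (3 without VHL-r replicate 2, where ITGA3 and ITGA6 were lost). Higher genes after R4VPL3-1 numbered 3 at a mean of at least 50 and 4 to 5 without single libraries, and lower genes 5 to 9. Between the compounds, lower genes numbered 0 to 3, with COL1A1, COL1A2 and COL3A1 without VHL-r replicate 1 and ITGB8 without R4VPL3-1 replicate 3. With a replicate block, 6 genes were higher and 5 lower after VHL-r, and 5 and 8 after R4VPL3-1. Between the compounds the counts were 0 and 0. COL3A1 and COL27A1 were gained after VHL-r and COL9A2 after R4VPL3-1. The main fit used no block, because same-numbered libraries deviated together little over all tested genes. Calls gained against DMSO when 1 library was left out were, for VHL-r, COL27A1 and COL3A1 (DMSO replicate 3), COL5A1 (DMSO replicate 1), LAMB1 (VHL-r replicate 3) and COL1A1, COL1A2 and COL3A1 (VHL-r replicate 1), and, for R4VPL3-1, COL4A6 (R4VPL3-1 replicate 1) and COL9A2 and ITGB1 (R4VPL3-1 replicate 3). Rescaling moved the median of all genes by less than 0.1 on the log2 scale. Few reads limit the genes with a mean under 100, whose intervals are among the widest.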
